A study of Homo sapiens with 11 samples.

Results

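The AP-1 family and the immediate early genes were followed through long-term culture of human cardiomyocytes made from stem cells. The set held 10 genes of the 19990 in the count table, taken by symbol: FOS, FOSB, FOSL1 and FOSL2 of the FOS family, JUN, JUNB and JUND of the JUN family, and the immediate early genes EGR1, EGR3 and IER2. All 10 had a row in the table and all 10 entered the test. All cells came from a single differentiation of passage 63 WTC11, a widely used human line of induced pluripotent stem cells. Every group shared the same history: CHIR99021, an activator of Wnt signalling, then IWP2, a blocker of Wnt secretion, then B27 medium with insulin. No agent, allele or medium differed between groups, and the only difference was the day of collection, which was Day 30 (4 wells), Day 60 (3 wells) or Day 113 (4 wells). The replicates were wells of that differentiation, so p-values cover the spread between wells and not between differentiations or lines. No batch was labelled, and the day of culture and the day of collection cannot be told apart.

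AP-1 is a dimer of basic leucine zipper proteins, in which a FOS family protein pairs with a JUN family protein, or JUN proteins pair with each other, and binds short DNA sites in promoters and enhancers. Immediate early genes are transcribed within minutes of a stimulus such as serum, stretch or a growth factor, from factors already present in the cell, and many of their transcripts are short-lived. In heart muscle FOS, JUN and EGR1 are known as early transcripts of mechanical load and of hypertrophic stimuli. FOS and EGR1 are classically induced through SRF, which binds CArG boxes together with ELK partners, and through CREB, which binds cyclic AMP response elements (CRE).

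Of the 10 members, 4 changed over the 3 days in the test described next. The 250 bases upstream of the RefSeq start of each of those genes are printed to show which of these sites lie there. They are given 5′ to 3′ on the gene's own strand in GRCh38.p14. FOS lies at chr14:75278578-75278827 on the plus strand, JUN at chr1:58784048-58784297 on the minus strand, JUND at chr19:18281623-18281872 on the minus strand and EGR1 at chr5:138465229-138465478 on the plus strand. The transcribed regions behind these starts run over chr14:75278828-75282230 (FOS), chr1:58780791-58784047 (JUN), chr19:18279694-18281622 (JUND) and chr5:138465479-138469303 (EGR1), and those of JUN and JUND are single exons without an intron. Capitals mark the CRE core site TGACGT, the CRE palindrome TGACGTCA, the site TGACATCA known from the JUN promoter, the CArG box and the TATA box TATAAA, each searched on both strands, so that ACGTCA is the core site read from the other strand.
FOS: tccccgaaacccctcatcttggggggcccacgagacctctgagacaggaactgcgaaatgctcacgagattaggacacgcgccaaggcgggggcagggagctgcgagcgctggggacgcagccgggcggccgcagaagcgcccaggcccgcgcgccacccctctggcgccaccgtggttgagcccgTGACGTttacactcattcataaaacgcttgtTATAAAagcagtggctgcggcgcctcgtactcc
JUN: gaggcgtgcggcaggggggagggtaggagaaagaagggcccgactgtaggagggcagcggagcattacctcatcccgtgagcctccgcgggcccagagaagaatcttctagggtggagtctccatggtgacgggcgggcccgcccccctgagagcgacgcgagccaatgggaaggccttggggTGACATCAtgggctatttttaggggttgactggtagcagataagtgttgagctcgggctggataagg
JUND: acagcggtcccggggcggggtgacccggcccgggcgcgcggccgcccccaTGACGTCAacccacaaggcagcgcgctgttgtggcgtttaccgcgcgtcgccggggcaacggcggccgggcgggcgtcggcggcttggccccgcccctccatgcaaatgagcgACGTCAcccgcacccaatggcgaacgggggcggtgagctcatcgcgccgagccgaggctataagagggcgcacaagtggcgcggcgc
EGR1: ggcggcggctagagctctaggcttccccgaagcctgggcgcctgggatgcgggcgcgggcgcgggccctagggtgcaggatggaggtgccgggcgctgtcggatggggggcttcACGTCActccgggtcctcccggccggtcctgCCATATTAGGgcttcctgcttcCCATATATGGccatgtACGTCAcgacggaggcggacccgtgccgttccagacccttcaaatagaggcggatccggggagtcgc

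The search ran over 300-base windows, from 250 bases before to 50 after the start. The promoter set used held such a window for 8 of the 10 members. FOSL1 and EGR3 have RefSeq positions but no window in that set, so they were not searched. The CRE core site was in 5 of the 8 windows (FOS, FOSB, FOSL2, JUND and EGR1) and in 7.98% of 35116 promoter windows in the table. In FOS it began 64 bases before the start and in EGR1 it was found 2 times, 136 and 67 bases before it. The CArG box was in 1 of the 8 windows, that of EGR1, with 2 copies beginning 105 and 83 bases before the start, and in 1.29% of all windows. JUND held the CRE palindrome, which contains the core site on each strand, 200 bases before the start, and 1.85% of all windows held it. JUN held TGACATCA 67 bases before the start, a site found in 2.61% of all windows. The AP-1 site TGACTCA was in the FOSL2 window (4.95% of all windows), and TATAAA was in those of FOS, FOSB and JUNB (11.5%). IER2 held none of these motifs in its window. A match describes the letters in the window and was not tested as a binding site. Sequence farther upstream than 250 bases was not searched, so a window without a motif does not show that the gene lacks it.

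Levels are given as CPM, counts per 1000000 counts after TMM scaling, from libraries of 24.1 to 34.5 M counts (M, units of 1000000). Together the 10 members held between 0.0358 and 0.0707% of each library's counts. Differences between days were tested with edgeR's quasi-likelihood test, with p-values adjusted by the Benjamini-Hochberg method over 19990 genes and a threshold of 0.05. All 7 cardiomyocyte markers were detected, among them TNNT2, and their summed level was 25977 to 37130 CPM at Day 30, 31449 to 36172 at Day 60 and 26297 to 29036 at Day 113. Markers of other cells were present too. The 6 endothelial markers summed to 54.7 to 81.2 CPM at Day 30, 39.1 to 64.97 at Day 60 and 188 to 774 at Day 113, and the 4 endoderm markers to 398 to 1163, 44.1 to 51.0 and 11.1 to 38.99 CPM. No marker of these lists was at 0 in all wells of a day. In bulk RNA, fewer cells of a type and less RNA per cell cannot be told apart.

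Across the 3 days, 4 of the 10 members changed: FOS (adjusted p = 0.0038), JUN (adjusted p = 7.0e-04), JUND (adjusted p = 8.1e-04) and EGR1 (adjusted p = 6.3e-04). Of all genes tested, 37.1% changed over the 3 days, so the members' share was close to that of the table. By their means the 4 genes followed 3 courses, which were not tested against each other. FOS was lower at both later days than at Day 30, and JUN and JUND were lowest at Day 113. EGR1 was lowest at Day 60 and highest on average at Day 113. From Day 60 to Day 113 neither FOS nor JUN passed the test, so the tests do not separate their courses. The other 6 members did not pass this test, with adjusted p-values of 0.061 (IER2), 0.081 (JUNB), 0.097 (EGR3), 0.21 (FOSL2), 0.28 (FOSB) and 0.66 (FOSL1).

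**Figure D1:**
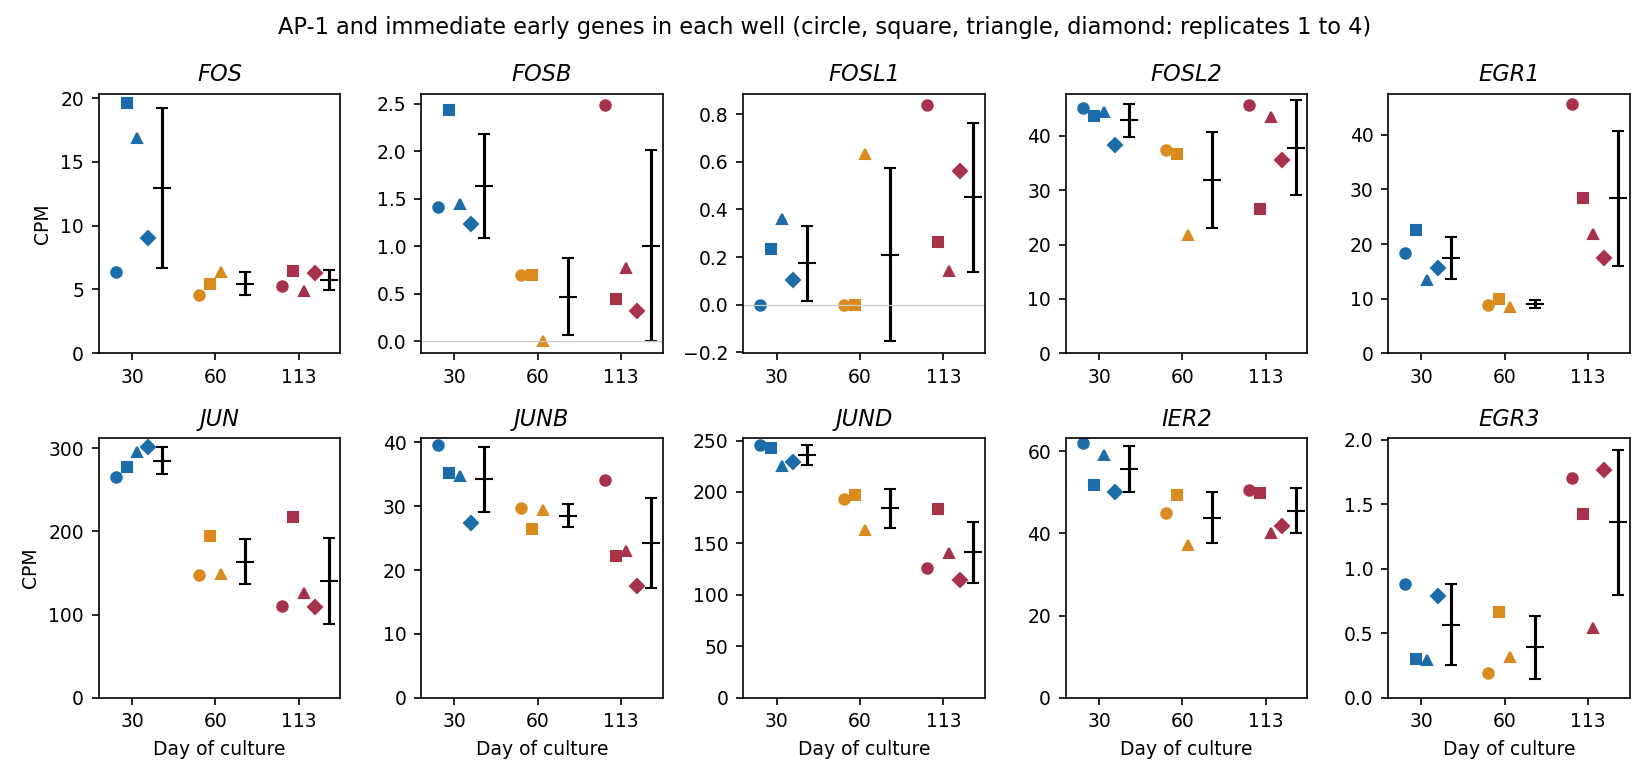
Level (CPM, vertical axis, its own scale in each panel) of the 10 genes by day of culture (horizontal axis), with a point for each well and a bar for the mean ± SD of each day (4, 3 and 4 wells). FOS spread from 6.38 to 19.6 CPM at Day 30 and lay between 4.56 and 6.45 in all later wells, while EGR1 was lowest in the 3 Day 60 wells. The bar of FOSL1 at Day 60 runs below 0 because its SD exceeds its mean.

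Between Day 30 and Day 60, 3 of the 10 members fell and 0 rose, where 10.3% of all genes were called, with 5.91% of all genes called lower and 4.39% called higher. At an unadjusted p under 0.05 edgeR also gave 0 higher members, as did DESeq2 and limma-voom after adjustment. The 3 that fell were FOS, JUN and EGR1, which fell 2.38-fold, 1.74-fold and 1.93-fold. The number called lower was 0 without Day 60 replicate 1 or 3 and 1 without Day 60 replicate 2 or Day 30 replicate 2, when calls over all genes also dropped, to 1259 without Day 60 replicate 1 and 1220 without replicate 3, from 2060. The median log2 fold change of the 10 members was -0.48, and that of all genes was -0.01. The levels of 7 members, namely FOS, FOSB, FOSL2, JUN, JUND, EGR1 and IER2, did not overlap between these days, and all 7 were lower at Day 60, while 24.8% of all genes did not overlap in either direction.

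From Day 60 to Day 113, 1 member rose (EGR1, 3.14-fold) and 1 fell (JUND, 1.30-fold), where 24.0% of all genes were called, with 12.9% higher and 11.1% lower. The median of the members was 0.16 and that of all genes was 0.00 on the log2 scale. EGR1 was the 1 member whose levels did not overlap, against 30.6% of all genes. Over the whole course, Day 113 against Day 30, 4 members fell (FOS 2.27-fold, JUN 2.03-fold, JUND 1.67-fold and JUNB 1.41-fold) and EGR1 rose 1.62-fold, where 34.5% of all genes were called, with 17.2% lower and 17.3% higher. The median of the members was -0.39 and that of all genes was -0.02. JUN and JUND did not overlap between those days, as did 35.1% of all genes. These 3 comparisons share their wells and are not independent of each other.

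**Figure D2:**
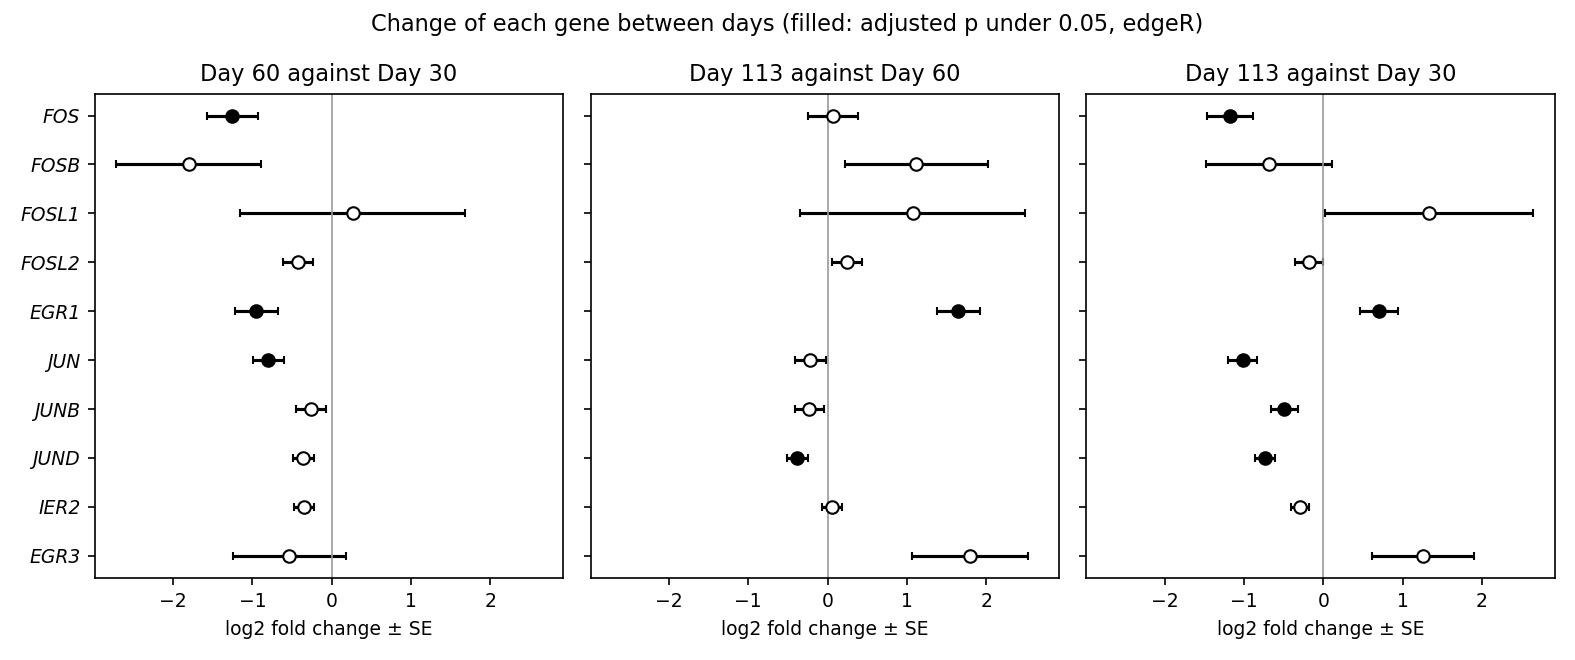
Log2 fold change ± SE (horizontal axis) of each of the 10 genes in the 3 comparisons of days, with filled points for an adjusted p under 0.05 in edgeR. EGR1 lies at -0.95 from Day 30 to Day 60 and at 1.65 from Day 60 to Day 113, and the error bars of FOSB, FOSL1 and EGR3 are the widest.

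FOS, the founding member of the family, whose transcript is among the fastest to rise and decay after a stimulus, measured 6.38, 19.6, 16.8 and 9.03 CPM in the Day 30 wells. It measured 4.56, 5.42 and 6.37 CPM at Day 60 and 5.31, 6.45, 4.88 and 6.30 CPM at Day 113. Replicates 2 and 3 of Day 30 stood well above the rest, while replicate 1 of that day was at the level of the later wells and above the highest Day 60 well by only the second decimal. Means were 13.0 ± 6.27 (SD, n = 4), 5.45 ± 0.904 (SD, n = 3) and 5.73 ± 0.762 CPM (SD, n = 4). FOS fell from Day 30 to Day 60 by 1.25 ± 0.32 (SE) on the log2 scale (edgeR adjusted p = 0.019). The later interval gave 0.07 ± 0.31 (adjusted p = 0.90), and Day 113 lay below Day 30 with a log2 fold change of -1.18 ± 0.29 (adjusted p = 0.0048), although replicate 2 of Day 113 slightly exceeded the lowest Day 30 well. The Day 60 call kept its direction but was lost with limma-voom, without Day 30 replicate 2 or 3, or without any 1 of the Day 60 wells (log2 fold changes of -1.35 to -0.96, adjusted p up to 0.095). The call at Day 113 was kept in all 21 alternatives, which are other tools, scalings and filters and fits without 1 well each.

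The high FOS wells at Day 30 were compared with marker levels in the same wells. The endoderm sums were 1103, 1163, 886 and 398 CPM in replicates 1 to 4, so the well with the lowest FOS had one of the highest endoderm sums. The fibroblast sums were 3396, 5717, 5039 and 2556 CPM, highest in the same 2 wells as FOS. They fell to between 1662 and 2756 at Day 60 but rose to between 4196 and 10125 at Day 113, where FOS was low. COL1A1 and COL3A1 made up most of these sums, with means of 3076 and 3623 CPM at Day 113. PDGFRA instead averaged 144 CPM at Day 30 and 32.3 at Day 113, and LUM 50.2 and 20.8. The 4 epithelial markers summed to 1625, 2140, 1753 and 1510 CPM in the Day 30 wells, also highest in the 2 wells with the highest FOS. They summed to 870 to 1021 at Day 60 and to 1241, 1773, 1348 and 1073 in the Day 113 wells, where replicate 2 was highest for FOS as well. These sums were mostly KRT8 and KRT18, with means of 1092 and 536 CPM at Day 30 and 971 and 382 CPM at Day 113. EPCAM instead averaged 59.4, 1.93 and 0.967 CPM over the 3 days, and CDH1 69.2, 7.68 and 4.75. The sums therefore describe mostly the 2 keratins, at Day 30 as well as at Day 113. All 4 endoderm and all 4 epithelial markers fell to Day 60, and 2 of 6 fibroblast markers fell while 1 rose, where 10.3% of all genes were called. The calls of POSTN, which rose, and PDGFRA, which fell, were lost without any 1 of the Day 60 wells (edgeR adjusted p up to 0.15 and 0.11). That of CDH1 was lost with robust dispersions (adjusted p = 0.053). Between Day 30 and Day 113, 3 of the 6 fibroblast markers rose and 2 fell, where 34.5% of all genes were called. The rise of COL1A1 lost its call in several alternatives, among them without Day 113 replicate 1 (0.62, edgeR adjusted p = 0.10). The part of these cells in the FOS values was not tested.

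FOSB, the paralogue whose truncated splice form accumulates under repeated stimulation, was low throughout. Its levels were 1.41, 2.44, 1.45 and 1.24 CPM at Day 30, 0.702, 0.700 and 0 at Day 60 and 2.48, 0.450, 0.770 and 0.321 at Day 113. All 4 Day 30 wells lay above the Day 60 wells, and replicate 1 of Day 113 was the highest of all 11. The Day 60 difference was -1.80 ± 0.91 on the log2 scale and did not pass the test (edgeR adjusted p = 0.26), nor did the later ones (1.12 ± 0.90, adjusted p = 0.41, and -0.69 ± 0.79, adjusted p = 0.55). The counts behind these values at Day 60 were 22, 19 and 0, so only large changes of FOSB could be seen at this depth.

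FOSL1, known as FRA-1, had 0, 7, 11 and 3 counts in the Day 30 wells, 0, 0 and 20 at Day 60 and 29, 7, 5 and 14 at Day 113. It was at 0 in 3 of the 11 libraries, and its levels overlapped between all pairs of days. Its differences of 0.26 ± 1.42, 1.07 ± 1.42 and 1.34 ± 1.31 on the log2 scale, in the order Day 60 against Day 30, Day 113 against Day 60 and Day 113 against Day 30, did not pass the test (edgeR adjusted p = 0.95, 0.64 and 0.48). The first of them changed sign in 4 of 19 alternatives.

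FOSL2, known as FRA-2, was the most abundant FOS family transcript. It measured 45.0, 43.6, 44.5 and 38.3 CPM at Day 30, 37.4, 36.6 and 21.7 at Day 60 and 45.7, 26.5, 43.5 and 35.6 at Day 113. Each Day 60 well was below each Day 30 well, with replicate 3 the lowest, and the Day 113 wells covered nearly the whole range. FOSL2 did not pass the test between any pair of days (-0.43 ± 0.19, edgeR adjusted p = 0.19; 0.25 ± 0.19, adjusted p = 0.39; -0.18 ± 0.18, adjusted p = 0.48).

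JUN, the JUN family member that activates transcription most strongly and is a substrate of the JNK kinases, was the member with the widest fall in CPM. It measured 266, 278, 296 and 301 CPM at Day 30, 147, 195 and 149 at Day 60 and 110, 217, 126 and 109 at Day 113. The Day 30 wells lay close together above all 7 later wells, and replicate 2 of Day 113 stood apart from the other 3 wells of its day. That well also had the highest heat shock sum, 4523 CPM beside 3379 to 3489 in the other 3, and its part in the JUN values was not tested. Means were 285 ± 16.3 (SD, n = 4), 164 ± 26.8 (SD, n = 3) and 141 ± 51.6 CPM (SD, n = 4). JUN fell by 0.80 ± 0.20 on the log2 scale to Day 60 (edgeR adjusted p = 0.015) and by 1.02 ± 0.18 from Day 30 to Day 113 (adjusted p = 4.1e-04). Between Day 60 and Day 113 the difference was -0.22 ± 0.19 (adjusted p = 0.46), but without Day 113 replicate 2 it was -0.50 (adjusted p = 0.0043). The fall to Day 60 did not pass when Day 60 replicate 1 or 3 was left out (-0.71 in both, adjusted p = 0.082 and 0.086).

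JUND, the JUN protein that is constitutively present in many tissues and is known to restrain hypertrophic growth in the mouse heart, fell between Day 30 and Day 113. It measured 246, 243, 226 and 229 CPM at Day 30, 193, 197 and 163 at Day 60 and 127, 183, 141 and 115 at Day 113. All Day 30 wells were above all later wells, and the Day 113 wells lay below those of Day 60 except for replicate 2. Means were 236 ± 9.85 (SD, n = 4), 184 ± 18.7 (SD, n = 3) and 141 ± 30.0 CPM (SD, n = 4). The first interval gave -0.36 ± 0.13 on the log2 scale and did not pass the test (edgeR adjusted p = 0.11). It was called in 3 of 21 alternatives, among them without Day 113 replicate 2 (-0.36, adjusted p = 0.018). The second gave -0.38 ± 0.13 (adjusted p = 0.048), a call that was lost in 10 of 21 alternatives: without any 1 of the Day 30 wells, without Day 60 replicate 1 or 2, without Day 113 replicate 1, 3 or 4, or with those 2 days fitted alone (-0.40 to -0.29, adjusted p up to 0.15). Day 113 against Day 30 gave -0.74 ± 0.12 (adjusted p = 2.6e-04) and was called in all 21.

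JUNB, a JUN protein often described as an antagonist of JUN, measured 39.6, 35.2, 34.8 and 27.3 CPM at Day 30, 29.7, 26.5 and 29.4 at Day 60 and 34.2, 22.3, 23.1 and 17.5 at Day 113. The 3 days overlapped, and replicate 1 of Day 113 lay among the Day 30 wells. JUNB was lower at Day 113 than at Day 30 by a log2 fold change of -0.49 ± 0.17 (edgeR adjusted p = 0.034), and this call was lost in 7 of 21 alternatives: without Day 30 replicate 1, 2 or 3, without Day 113 replicate 2, 3 or 4, or with those 2 days fitted alone (-0.49 to -0.37, adjusted p up to 0.11). The single intervals did not pass the test (-0.26 ± 0.18, adjusted p = 0.46, and -0.23 ± 0.18, adjusted p = 0.40); without Day 113 replicate 1 the second was -0.44 (adjusted p = 0.044). JUNB shares exonic sequence with HOOK2 on the opposite strand, so its counts are uncertain where counting ignored strand.

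EGR1, a zinc finger factor induced by serum, stretch and growth factors, was the member that rose. It measured 18.4, 22.5, 13.5 and 15.7 CPM at Day 30, 8.78, 9.91 and 8.49 at Day 60 and 45.7, 28.5, 21.9 and 17.5 at Day 113. The Day 60 wells lay close together below all 8 others, and replicate 1 of Day 113 was far above the other 10 wells, with 1583 counts. Means were 17.5 ± 3.87 (SD, n = 4), 9.06 ± 0.754 (SD, n = 3) and 28.4 ± 12.4 CPM (SD, n = 4). EGR1 fell by 0.95 ± 0.27 on the log2 scale to Day 60 (edgeR adjusted p = 0.032) and then rose by 1.65 ± 0.27 (adjusted p = 4.9e-04). The rise ranged from 1.32 to 1.82 over 21 alternatives, with an adjusted p of at most 0.0045, and was 1.32 without Day 113 replicate 1. The fall to Day 60 kept its direction in all 21 alternatives but lost its call in 6: with limma-voom, without Day 30 replicate 1 or 2, or without any 1 of the Day 60 wells (-1.02 to -0.78, adjusted p up to 0.13). Day 113 against Day 30 gave 0.70 ± 0.24 (adjusted p = 0.033), which was 0.37 (adjusted p = 0.15) without Day 113 replicate 1 and also lost its call without Day 30 replicate 1, 3 or 4 or Day 113 replicate 2 (0.59 to 0.72, adjusted p up to 0.0995).

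The change of EGR1 from Day 60 to Day 113 differed from its change from Day 30 to Day 60 by 2.60 ± 0.50 on the log2 scale (edgeR adjusted p = 0.0046). EGR1 was the 1 member that passed this test of the difference between the intervals, which 9.34% of all genes passed (4.97% with a positive and 4.38% with a negative difference), and it did so in all 20 alternatives. FOS did not pass (1.32, adjusted p = 0.17). Within the windows searched, the promoter of FOS holds the CRE core site but no CArG box, and that of EGR1 holds both. The windows begin 250 bases before the start, so they do not tell whether FOS has a CArG box farther upstream. These matches describe the sequences and were not tested against the expression.

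Markers of other cells moved beside the EGR1 rise. All 6 of 6 endothelial markers rose from Day 60 to Day 113, with a median log2 fold change of 3.08. The call of TEK was lost in several alternatives. Among them were upper-quartile scaling (1.03, edgeR adjusted p = 0.051) and the fit without Day 113 replicate 1 (0.67, adjusted p = 0.15). Of all genes, 12.9% were called higher and 11.1% lower in that interval. The endothelial sums were 774, 294, 356 and 188 CPM in Day 113 replicates 1 to 4, beside EGR1 levels of 45.7, 28.5, 21.9 and 17.5 CPM, so the highest and the lowest EGR1 wells were also the highest and the lowest in endothelial markers. At Day 30 EGR1 was at 13.5 to 22.5 CPM and the endothelial sums were 54.7 to 81.2 CPM. The fibroblast sums were 10125, 5222, 8486 and 4196 CPM in the Day 113 wells, and 3 of 6 fibroblast markers rose while 1 fell from Day 60. The 3 smooth muscle markers in the table summed to 1096, 956, 909 and 702 CPM in those wells, in the same order as EGR1. They summed to 522 to 675 at Day 60, and 2 of the 3 rose. Their Day 30 sums were 563, 593, 446 and 685 CPM in replicates 1 to 4, not in the order of EGR1 there. The 7 cardiomyocyte markers summed to 29036, 28809, 27158 and 26297 CPM in the Day 113 wells, also in the order of EGR1, so that order was not particular to other cells. Both proliferation markers, MKI67 and TOP2A, fell, with sums of 346 to 521 CPM at Day 60 and 122 to 272 at Day 113. The call of MKI67 was lost without Day 60 replicate 1 (-0.69, edgeR adjusted p = 0.065). The 6 heat shock genes summed to 2344 to 2621 CPM at Day 60 and to 3436, 4523, 3379 and 3489 in the Day 113 wells, where replicate 2 stood apart. The part of these cells and of heat shock in the EGR1 values was not tested.

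EGR3, a related zinc finger factor, was low, at 0.878, 0.300, 0.296 and 0.790 CPM at Day 30, 0.191, 0.663 and 0.315 at Day 60 and 1.70, 1.42, 0.542 and 1.77 at Day 113. Replicates 1, 2 and 4 of Day 113 were above every earlier well, and replicate 3 of that day was not. The difference from Day 60 to Day 113 was 1.80 ± 0.73 on the log2 scale and did not pass the edgeR test (adjusted p = 0.086), although it passed with DESeq2 (adjusted p = 0.041). The others were -0.54 ± 0.71 (adjusted p = 0.74) and 1.26 ± 0.64 (adjusted p = 0.15).

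IER2, an immediate early gene that encodes a small nuclear protein, had the lowest fitted variation between wells of the 10, with a biological coefficient of variation of 0.12 beside a median of 0.21 over the members and over all genes. It measured 61.9, 51.8, 59.0 and 50.2 CPM at Day 30, 45.1, 49.3 and 37.2 at Day 60 and 50.6, 49.8, 40.0 and 41.7 at Day 113. The Day 30 wells lay above the Day 60 wells, and the Day 113 wells reached into the range of Day 30. No comparison of days passed the test (-0.35 ± 0.13, edgeR adjusted p = 0.10; 0.05 ± 0.13, adjusted p = 0.80; -0.29 ± 0.12, adjusted p = 0.065). The first was called in 1 of 21 alternatives (adjusted p = 0.040). The last was called in 5 alternatives, among them without Day 113 replicate 1 (-0.35, adjusted p = 0.041) or replicate 2 (-0.34, adjusted p = 0.043).

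Set per kilobase of annotated exon in GENCODE (CPM per kb), which allows levels to be compared between genes, the members spanned a wide range and kept much of their order. At Day 30 JUND stood at 127 ± 5.29 and JUN at 80.5 ± 4.62 CPM per kb (SD, n = 4), and their wells did not overlap. JUNB (18.8 CPM per kb) and IER2 (18.1) followed and overlapped with each other, then FOSL2 (6.31), EGR1 (5.58) and FOS (4.41), which overlapped among themselves, and FOSB (0.294), EGR3 (0.127) and FOSL1 (0.0949) were lowest. At Day 60 JUND was at 98.8 and JUN at 46.2 CPM per kb, again without overlap, and FOS (1.86), EGR1 (2.89) and FOSL2 (4.70) had separated so that no 2 of them overlapped. At Day 113 the lowest JUND well (61.6 CPM per kb) barely exceeded the highest JUN well (61.4). EGR1 (9.04 CPM per kb) then had a higher mean than FOSL2 (5.57), with overlapping wells, and FOS (1.95) lay below both.

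The spread between wells differed by gene. JUN, JUNB, JUND and EGR1 had their largest SD of log2 CPM at Day 113, while in the other 6 members that SD was lower at Day 113 than at Day 60. The median SD of log2 CPM over the members was 0.27 at Day 30, 0.23 at Day 60 and 0.43 at Day 113, beside 0.22, 0.25 and 0.31 for all genes. At Day 30 the SD of FOS was 0.76, while that of JUND was 0.06 and that of JUN was 0.08. Within Day 113, replicate 1 was the highest well for 6 of the 10 members and the lowest for 0, and replicate 4 was the lowest for 5. The high wells differed by gene, since replicate 1 led for EGR1, FOSB, FOSL1, FOSL2, JUNB and IER2 and replicate 2 led for JUN, JUND and FOS.

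Genes whose log2 CPM ran most like that of FOS and EGR1 over the 11 libraries were taken from 11939 genes with a mean of at least 5 CPM, as a description. For FOS these were TSPAN13 (Pearson r = 0.96), TXNDC12 (0.96), PRR15 (0.93), FAM3C (0.92) and TCP11L1 (0.90). PRR15 measured 6.95, 21.9, 16.7 and 6.84 CPM at Day 30, so its 2 high wells were those of FOS, and 1.37 to 2.92 CPM in the later wells. For EGR1 they included CHST1 (0.96), MARS (0.96), TPM4 (0.95) and GNB1 (0.95). CHST1, which encodes a sulfotransferase, measured 11.2, 16.5, 11.5 and 10.4 CPM at Day 30, 5.36, 3.91 and 2.71 at Day 60 and 98.4, 43.5, 39.9 and 19.0 at Day 113, with no overlap between any pair of days. The libraries share their days, so such correlations hold both the differences between days and those between wells.

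**Figure D3:**
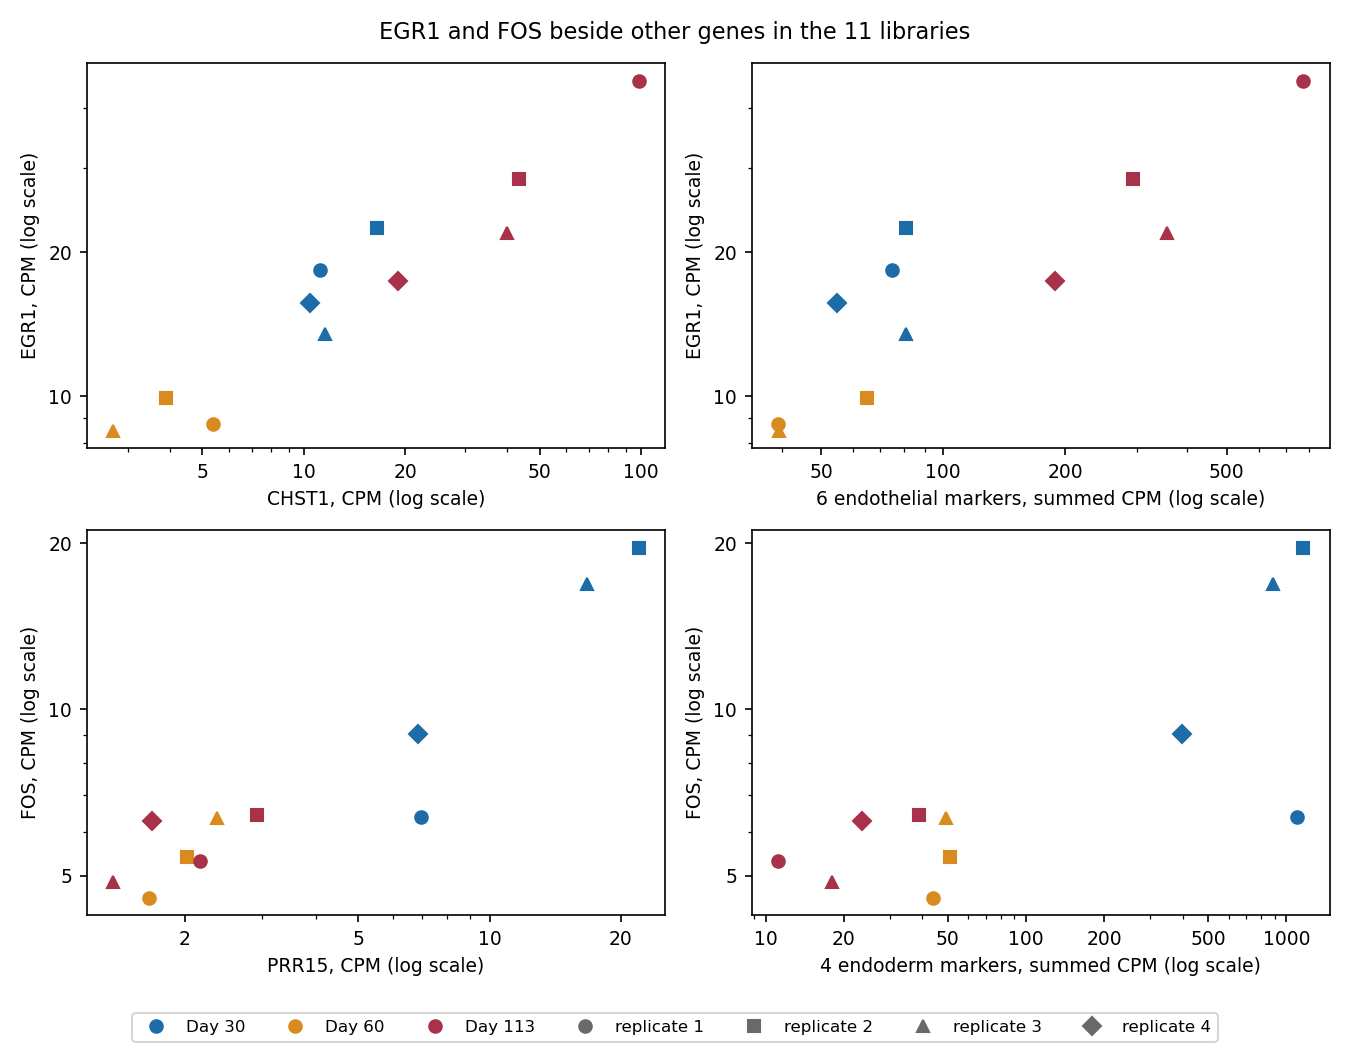
EGR1 (upper panels) and FOS (lower panels) in CPM on vertical log axes, against CHST1, the summed endothelial markers, PRR15 and the summed endoderm markers in CPM on horizontal log axes, with a point for each of the 11 libraries. EGR1 and CHST1 are both lowest in the 3 Day 60 wells and highest in Day 113 replicate 1, while Day 30 replicate 1 has an endoderm sum of 1103 CPM and a FOS level of only 6.38.

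Other immediate early genes were read from a list of 39, of which 37 were in the table. From Day 30 to Day 60, 10 fell and 1 rose, from Day 60 to Day 113, 12 rose and 6 fell, and between Day 30 and Day 113, 8 rose and 10 fell. Of all genes, 10.3%, 24.0% and 34.5% were called in these comparisons. Their median log2 fold changes were -0.23, 0.23 and 0.07 in that order, beside -0.01, 0.00 and -0.02 for all genes. DUSP6, a phosphatase of ERK that is itself an ERK target, also fell and then rose. It measured 6.15, 9.67, 7.01 and 6.70 CPM at Day 30, 2.90, 2.84 and 3.03 at Day 60 and 30.9, 16.6, 20.7 and 12.7 at Day 113, with no overlap between any pair of days. It fell by 1.34 ± 0.27 and then rose by 2.79 ± 0.28 on the log2 scale (edgeR adjusted p = 0.0049 and 1.0e-05), the fall being lost with limma-voom (-1.32, adjusted p = 0.063).

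ATF3, a stress-induced factor that can pair with JUN proteins, fell in the first interval. It measured 28.5, 40.7, 32.1 and 29.2 CPM at Day 30, 8.46, 10.9 and 12.5 at Day 60 and 8.14, 16.9, 12.0 and 6.98 at Day 113, so that every Day 30 well lay above every later one. It fell by 1.62 ± 0.26 on the log2 scale to Day 60 (edgeR adjusted p = 8.2e-04) and differed by 0.05 ± 0.25 afterwards (adjusted p = 0.92). HBEGF, a membrane-bound ligand of the EGF receptor, fell by 1.43 ± 0.17 and then rose by 0.67 ± 0.17 (adjusted p = 9.4e-05 and 0.0098), the second call being lost without Day 60 replicate 1 (0.58, adjusted p = 0.056). CCN1, a secreted matrix protein, fell by 0.90 ± 0.20 and rose by 0.91 ± 0.20 (adjusted p = 0.0080 and 0.0035), the first call being lost without Day 60 replicate 3 (-0.70, adjusted p = 0.058). SGK1, a serum-induced kinase, rose in both intervals, by 1.02 ± 0.23 and 1.24 ± 0.23 (adjusted p = 0.0093 and 0.0013). TRIB1, a pseudokinase, fell in both, with -0.58 ± 0.15 and -1.18 ± 0.15 (adjusted p = 0.021 and 6.0e-05), the first being lost without Day 30 replicate 1 or 2 or Day 60 replicate 2 or 3 (-0.54 to -0.49, adjusted p up to 0.11).

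Of 15 other leucine zipper genes of the AP-1 type, 14 were in the table, and 2 of them, ATF3 and MAFF, are also on the immediate early list. From Day 30 to Day 60, 3 fell (ATF3, CREB5 and JDP2) and 0 rose in edgeR, DESeq2 or limma-voom, with 1 higher at an unadjusted p under 0.05 in edgeR. From Day 60 to Day 113, JDP2 and MAFG rose and CREB5 fell. The call of MAFG was lost without Day 60 replicate 3 (0.34, edgeR adjusted p = 0.055, against 0.46). Between Day 30 and Day 113, 2 rose and 2 fell. The list medians were -0.03, 0.12 and 0.15, and the shares of all genes called were 10.3%, 24.0% and 34.5%. CREB5, which binds CRE sites, fell by 0.70 ± 0.13 and then by 0.48 ± 0.13 on the log2 scale (edgeR adjusted p = 0.0028 and 0.013), the second call being lost without Day 60 replicate 2 (-0.32, adjusted p = 0.089). JDP2, a JUN dimerization partner that represses AP-1, fell by 0.65 ± 0.18 and rose by 0.68 ± 0.18 (adjusted p = 0.028 and 0.011), and the fall did not pass when Day 30 replicate 1, 2 or 3 or any 1 of the Day 60 wells was left out (-0.69 to -0.59, adjusted p up to 0.10).

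Upstream of the members, 25 of 25 listed kinases, ternary complex factors and EGR co-repressors were in the table, with medians of -0.09, -0.01 and -0.02. In the first interval 1 rose and 3 fell, in the second 3 rose and 1 fell, and over the whole course 6 rose and 5 fell. The shares of all genes called were 10.3%, 24.0% and 34.5%. SRF, the CArG box factor, measured 74.0 to 109 CPM at Day 30, 80.3 to 117 at Day 60 and 153 to 188 at Day 113, and rose in the second interval by 0.76 ± 0.14 on the log2 scale (edgeR adjusted p = 0.0014). ELK3, a ternary complex partner of SRF, fell by 1.12 ± 0.27 and rose by 1.40 ± 0.27 (adjusted p = 0.014 and 0.0017), the first call being lost without Day 60 replicate 1 or 3 (-1.13 and -1.04, adjusted p up to 0.073). NAB1 and NAB2, which bind EGR proteins and repress their activity, rose by 0.43 ± 0.10 and 0.55 ± 0.18 between Day 30 and Day 113 (adjusted p = 0.0032 and 0.028), the call of NAB2 being lost without Day 30 replicate 1 or 4 or Day 113 replicate 1 or 3 (0.45 to 0.54, adjusted p up to 0.088).

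Downstream, 19 of 21 genes named in textbooks as AP-1 targets were in the table. From Day 30 to Day 60, 4 fell and 1 rose, from Day 60 to Day 113, 7 rose and 2 fell, and between Day 30 and Day 113, 6 rose and 7 fell. Calls over all genes were 10.3%, 24.0% and 34.5%. Their medians were -1.08, 0.94 and -0.09 on the log2 scale. The first was -0.85 with IL6 set at its bound of 1.95-fold, since IL6 had 0 counts in all 3 Day 60 wells. At Day 30 IL6 had only 6 counts in total, so its direction in the first interval was not resolved. IL6, a cytokine, was at least 7.06-fold higher at Day 113 than at Day 60, taking 3 counts per library as the floor for counting error only. MMP1, an interstitial collagenase, measured 4.20 to 5.77 CPM at Day 30, 2.46 to 7.04 at Day 60 and 34.3 to 76.5 at Day 113, and rose by 3.85 ± 0.35 (edgeR adjusted p = 5.1e-06). PLAU, the urokinase gene, fell by 1.77 ± 0.38 and rose by 1.26 ± 0.38 (adjusted p = 0.0070 and 0.023), the second call being lost without Day 60 replicate 2 or 3 or Day 113 replicate 1 (0.96 to 1.27, adjusted p up to 0.11). TIMP1, an inhibitor of matrix metalloproteinases, rose by 1.08 ± 0.15 in the second interval (adjusted p = 1.2e-04). CCND1, a cell cycle gene on the list, did not pass the test in any comparison. The endothelial marker sums given above were highest at Day 113 as well. The fibroblast sums, mostly COL1A1 and COL3A1, also peaked there but overlapped with those of Day 30. The part of these cells in the target values was not tested.

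**Figure D4:**
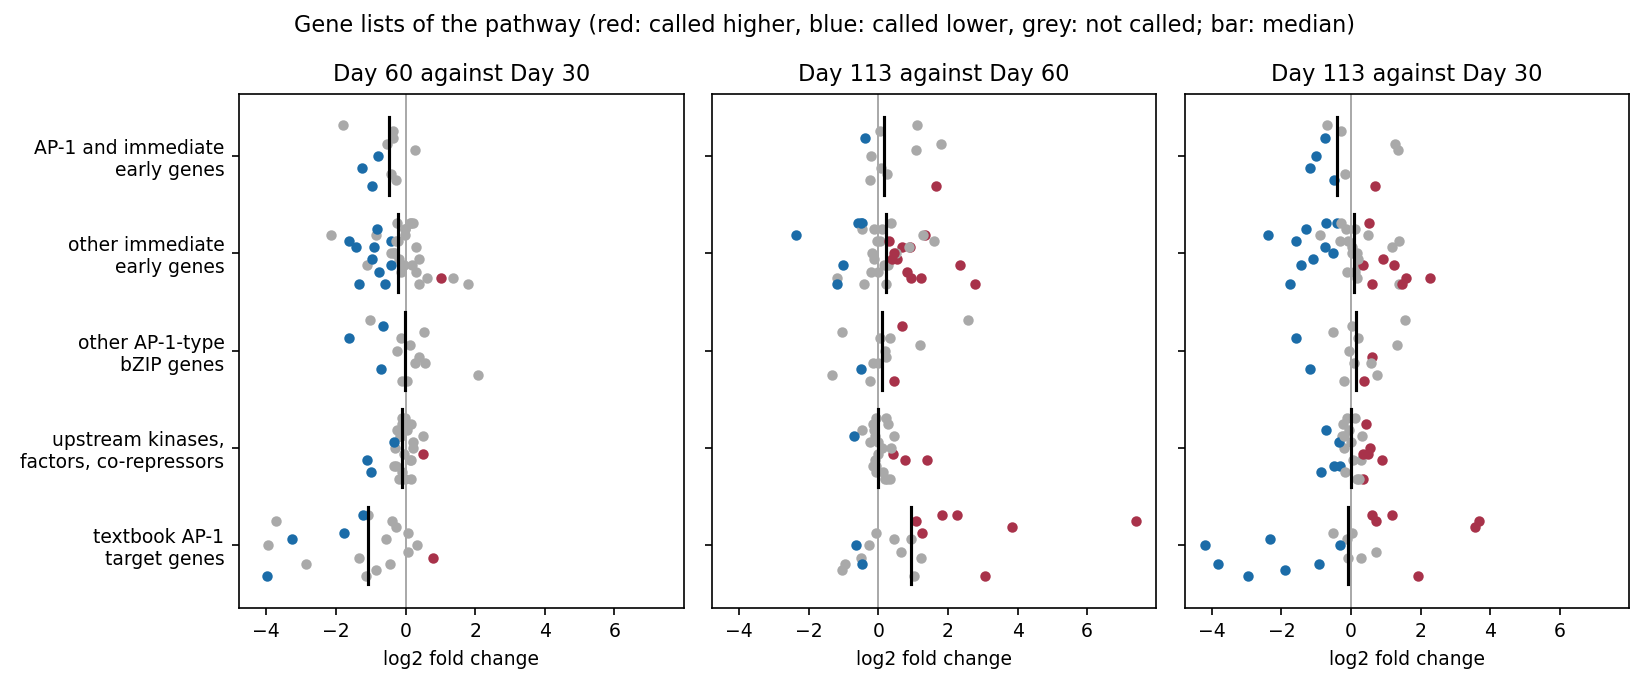
Log2 fold change (horizontal axis) of each gene of the 10-gene set and of 4 lists around it in the 3 comparisons of days, with a point for each gene, coloured by its call in edgeR, and a bar for the median of each list. The median of the AP-1 targets is -1.08 from Day 30 to Day 60 and 0.94 from Day 60 to Day 113; the farthest point on the right is the fitted value of IL6, which was at 0 at Day 60, so that value is not a measured fold.

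Of 7 genes associated with hypertrophy, 1 rose and 2 fell in the first interval and 3 rose and 0 fell in the second, with medians of -0.40 and 0.26; 0 fell there at an unadjusted p under 0.05 too, and with DESeq2 or limma-voom. Their median between Day 30 and Day 113 was 0.13, with 2 higher and 1 lower. Of all genes, 10.3% were called in the first interval, 24.0% in the second and 34.5% over the whole course. ANKRD1, a stretch-responsive gene of heart muscle, also fell and then rose, with -0.99 ± 0.18 and then 1.12 ± 0.18 on the log2 scale (edgeR adjusted p = 0.0021 and 3.9e-04). NPPA, the atrial natriuretic peptide gene, rose in both intervals, by 0.99 ± 0.21 and 1.32 ± 0.22 (adjusted p = 0.0070 and 5.7e-04), while NPPB did not pass the test in any comparison. Of 8 heat shock genes 6 were in the table, and 0 changed in the first interval in edgeR, DESeq2 or limma-voom, or at an unadjusted p under 0.05, while 3 rose and 1 fell in the second. HSPA8, a constitutive chaperone, rose by 1.20 ± 0.11 in the second (adjusted p = 6.4e-06). The heat shock medians were 0.06, 0.50 and 0.50.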

How the data were processed

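Poly(A) RNA of 11 wells was sequenced as paired-end reads, per the labels' protocols. The authors deposited whole-number read counts for 19990 gene symbols, with no normalization; STAR 2.5.3a, featureCounts 2.0.3 and hg38 are named in the submitters' processing notes, with no settings, and the annotation and the use of strand are not given in the sources used here. The authors also deposited TPM values, not used in any comparison: the gene length implied by count divided by TPM had a median Spearman rho of -0.0016 over 55 library pairs, and JUN ran from 3.79 to 848 TPM beside 2729 to 8989 counts.

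Counts were tested with edgeR 4.0.16 in R 4.3.3 (TMM factors of 0.966 to 1.04, filterByExpr with a minimum count of 10, which removed 0 genes), with all 11 libraries in 1 fit and day as the factor. SE is the absolute log2 fold change over the square root of F. The tests took the days pairwise, all 3 days at once, and one interval against the other. DESeq2 1.42.0, limma 3.58.1 (limma-voom), other scalings and filters, a replicate block and fits without 1 well each were alternatives. Simulated data used the real 19990 genes, of which 200 were changed between Day 60 and Day 30. There 56% of 2-fold and 75% of 4-fold changes were recovered, with 10 unchanged genes among 141 calls. The real comparison called 2060 genes, and the adjusted threshold depends on the share of genes that change. These rates therefore do not give the power of the real test. Wells of a day differed by more than counting noise, with a chi-square of 11.7 to 88.7 per degree of freedom.

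The members, the gene lists and the markers were chosen with earlier results of these data known. Named genes were all 10 members, list genes beside their list's counts, and, for FOS and EGR1, the 5 genes with the highest Pearson r; the list genes given singly were chosen after their values were seen. Some genes that this rule selects are not reported here. Exon lengths and overlaps come from GENCODE annotation, upstream sequences from RefSeq (GRCh38.p14). The listed genes that were not in the table were not analysed here.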

Additional observations from a re-analysis of the deposited data

Results flagged for a closer look

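JUN at Day 113 was flagged because 1 well lay far from the others: replicate 2 measured 217 CPM beside 110, 126 and 109, and its gap to the nearest well was 0.845 of the range of the 4 wells. This exceeds Dixon's critical value at 95% for 4 samples. The check covered 20 groups of 4 wells, and chance flags about 1 in 20. JUND was highest in the same well, at 183 CPM, and so was the sum of the 6 heat shock genes, at 4523 CPM beside 3379 to 3489 in the other 3 wells; the part of heat shock in the JUN value was not tested.

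EGR1 was flagged because its changes in the 2 intervals differed, with -0.95 from Day 30 to Day 60 and 1.65 from Day 60 to Day 113, a difference of 2.60 ± 0.50 on the log2 scale (edgeR adjusted p = 0.0046).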

How the results depend on the processing

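The 10 calls of members in the 3 pairs of days gave 210 values under the alternatives, of which 174 stayed called, 36 lost the call (32 of them without 1 well, where fewer samples enter) and 0 reversed. Members called from Day 30 to Day 60 numbered 1 with limma-voom, 5 with the replicate block and 0 to 4 without 1 well each. From Day 60 to Day 113 they numbered 1 with those days fitted alone, 3 with DESeq2 and 1 to 3 without 1 well each, and between Day 30 and Day 113 they numbered 3 to 5 without 1 well each, with 3 when Day 30 replicate 1 or 3 was left out. Over all genes, calls from Day 30 to Day 60 ran from 1220 to 2618 without 1 well each, against 2060, and were 1323 without Day 30 replicate 2. They were 2009 with limma-voom and 2474 with the replicate block. Over all alternatives, all-gene calls ran from 3317 to 5444 from Day 60 to Day 113, against 4790. Between Day 30 and Day 113 they ran from 5657 to 7461, against 6889. Calls of the difference between intervals ran from 643 (without Day 60 replicate 1) to 2221, against 1868, and were 774 without Day 60 replicate 3. Some differences that had not passed the test changed sign. FOSL1 from Day 30 to Day 60 was -1.09 with limma-voom, -0.71 with the replicate block and -5.40 to 0.88 without 1 well each. IER2 from Day 60 to Day 113 was -0.012 with upper-quartile scaling and -0.060 to 0.15 without 1 well each, and FOS was -0.051 to 0.19. The cause of these changes was not tested. Same-numbered wells of different days deviated together only weakly (r of 0.019 to 0.057, median 0.039, over 10 pairs). The 30 pairs with other numbers gave r of -0.063 to 0.039 (median -0.012), and 9 of 11 libraries correlated best with their own number. A weak link by number therefore remains possible. The main fit took no pairing because the labels state none. Beside the 5 members above, the block gave 6 between Day 30 and Day 113. Depth limits FOSB, FOSL1 and EGR3, whose wells held few counts.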
